A study of Mus musculus with 8 samples.

Results

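Respiratory complexes II to V are the mitochondrial enzymes that oxidise succinate (complex II), pass electrons from ubiquinol to cytochrome c (complex III) and on to oxygen (complex IV), and make ATP (complex V). Their genes were taken from the arrays by the start of the gene symbol, Sdh for complex II, Uqcr for complex III, Cox followed by a digit for complex IV and Atp5 for complex V, in the symbol deposited by the authors or in the current symbol. This rule gave 58 of the 18466 genes on the arrays, with 65 probes: 8 genes for complex II, 8 for complex III, 25 for complex IV and 17 for complex V. A gene with several probes is represented by its brightest one, and 7 of the 58 had 2 probes. The rule also brought in Sord, listed under the old symbol Sdh1 and encoding sorbitol dehydrogenase, which is no part of complex II.

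Total RNA from 8 spontaneous mammary tumours of mice of the strain FVB/N-TgN (MMTVneu)-202Mul was hybridised to Illumina bead arrays. In these mice the mammary tumour virus promoter drives the neu oncogene in mammary epithelium, and all 8 tumours, treated and control, carry the transgene. The imiquimod tumours (n = 4) were given topical imiquimod, an agonist of the innate immune receptor TLR7, for 1 cycle, and the control tumours (n = 4) were given control cream. The labels give no age and tie no tumour to a mouse, so p-values cover only the spread among these 8 samples, part of which may be technical.

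Complexes III and IV pump protons across the inner mitochondrial membrane as electrons pass through them, and ATP synthase uses the returning protons to turn a rotor and join phosphate to ADP. Complex II feeds electrons from the citric acid cycle without pumping. All subunits of complex II, and most of those of the other complexes, are encoded in the nucleus, whereas a few core subunits are encoded by mitochondrial DNA and carry other symbols, so the genes described here are nuclear. Some subunits of complex IV exist as a ubiquitous form and as a form made in skeletal muscle, heart and brown fat.

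Values are log2 signals, and a fold change is the imiquimod mean minus the control mean on that scale, with its standard error (SE). Array medians were nearly equal, and the maximum was 15.07 on every imiquimod array but 14.86 on every control array. Arrays correlated on average at 0.963 to 0.972 with others of their group among imiquimod tumours and at 0.959 to 0.974 among control tumours. With the other group the averages were 0.923 to 0.958 for imiquimod tumours and 0.926 to 0.949 for control tumours. Imiquimod 1 was nearly as close to the controls (0.958) as to its own group (0.963). A gene is called changed at an adjusted p below 0.05 in limma over all 13142 genes and unnamed probes that were bright enough to test. Of 14 luminal epithelial markers 11 were tested, and Krt19, Erbb3 and Ehf were too dim. The mean of the 11 lay between 9.10 and 9.50 in imiquimod tumours and between 9.26 and 9.63 in control tumours. Signals over the 8 tumours ranged from Epcam at 6.52 to 6.94, near the limit of brightness, to Krt18 at 11.53 to 11.97. At the threshold 0 of the 11 changed, but Krt18 (-0.20) and Spdef (-0.58) were lower at an unadjusted p below 0.05. Markers of macrophages, of which 8 of 16 tested rose and 0 fell, averaged 8.75 to 9.49 in imiquimod tumours and 7.94 to 8.21 in control tumours. Of 23 proliferation genes tested, 16 fell and 0 rose, and their mean was 7.36 to 7.63 in imiquimod tumours and 8.29 to 8.60 in control tumours. Of 11 fibroblast and matrix genes tested, 1 rose (Dcn, 2.35, adjusted p = 0.0483), 7 were higher at an unadjusted p below 0.05, and their mean was 7.06 to 8.44 in imiquimod tumours and 6.86 to 7.19 in control tumours. The part of the macrophage, fibroblast and proliferation genes in the results below was not tested. In whole tumours, fewer cells of a type and less RNA per cell cannot be told apart.

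Of the respiratory genes 9 fell with imiquimod and 0 rose. The 9 came from complex V (Atp5g1, Atp5o, Atp5d and Atp5g2), complex IV (Cox7a2, Cox15, Cox7a1 and Cox6b1) and complex III (Uqcrc1), and 0 of the 7 genes tested under the complex II prefix passed the threshold. Of the 58 genes 54 were bright enough to test, so the share that fell was 16.7%, against 2.2% of all genes tested. For a rise the count was 0 of 54 at the adjusted threshold, against 2.13% of all genes, and 0 of 54 at an unadjusted p below 0.05, against 9.21% of all genes. The fold change was below 0 for 45 of the 54 (83.3%), against 55.8% of all genes tested. In 21 of the 54 (38.9%) every imiquimod tumour lay below every control tumour, against 7.11% of all genes, and in 0 of the 54 above it, against 5.52% of all genes. At an unadjusted p below 0.05 the number lower was 27 of 54, against 11.3% of all genes. The median log2 fold change was -0.29 over the 54 genes and -0.02 over all 13142.

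The order of the complexes depended on which of their genes were counted. The median log2 fold change was -0.21 for the 7 genes tested under the complex II prefix, Sord among them. It was -0.27 for the 7 of complex III, -0.29 for the 23 of complex IV and -0.39 for the 17 of complex V. All 17 complex V genes had a fold change below 0, against 55.8% of all genes. So had 6 of 7 under the complex II prefix, 5 of 7 of complex III and 17 of 23 of complex IV. Over the subunits alone, without assembly factors and tissue isoforms, it was -0.04 for 3 of complex II, -0.27 for 7 of complex III, -0.43 for 10 of complex IV and -0.40 for 16 of complex V. Differences between complexes were not tested.

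**Figure D1:**
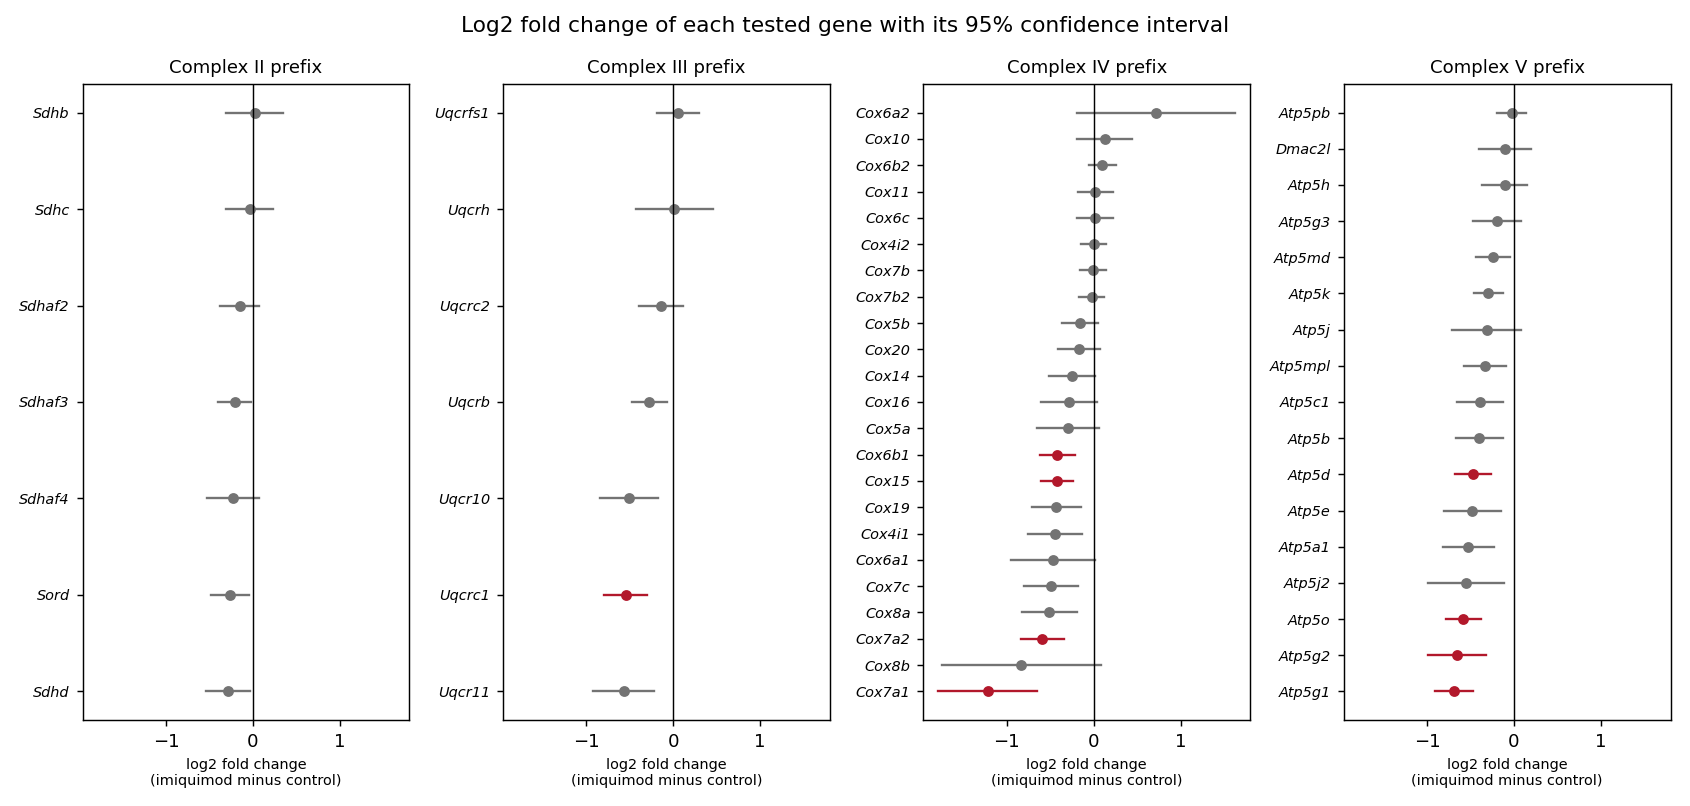
Log2 fold change (imiquimod minus control, x axis) of each of the 54 tested genes with its 95% confidence interval, in 1 panel per prefix group and ordered from highest to lowest. Red points are the 9 genes that fell, all left of 0, and all 17 complex V points lie left of 0.

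The promoters of genes that fell are shown first because genes of the respiratory chain are known to share binding sequences for a few transcription factors, among them NRF1 and GABPA (also called NRF2), and the windows differ in which of these they hold. The RefSeq promoter table (build GRCm38.p6) held 47 of the 58 genes. Each sequence below runs 5′ to 3′ on the gene's strand, from 120 bases before the RefSeq gene start to 30 bases after it, and capitals mark a match on either strand to the NRF1 consensus or to the GABPA sequence CCGGAAG. Atp5g2 and Uqcrc1 hold an NRF1 match, Cox15 holds a GABPA match, and Atp5g1 and the muscle-type gene Cox7a1 hold neither.
Atp5g2, chr15:102671018-102671167, minus strand: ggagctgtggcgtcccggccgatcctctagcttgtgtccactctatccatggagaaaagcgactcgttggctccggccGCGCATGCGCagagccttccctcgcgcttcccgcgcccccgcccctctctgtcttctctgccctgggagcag
Uqcrc1, chr9:108936528-108936677, plus strand: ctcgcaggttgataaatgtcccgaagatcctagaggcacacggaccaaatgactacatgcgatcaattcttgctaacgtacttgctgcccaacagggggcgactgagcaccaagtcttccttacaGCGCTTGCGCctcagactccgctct
Cox15, chr19:43752971-43753120, minus strand: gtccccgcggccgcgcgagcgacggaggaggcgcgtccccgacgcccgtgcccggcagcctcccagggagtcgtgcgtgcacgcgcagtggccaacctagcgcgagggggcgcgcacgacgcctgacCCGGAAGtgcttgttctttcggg
Atp5g1, chr11:96075602-96075751, minus strand: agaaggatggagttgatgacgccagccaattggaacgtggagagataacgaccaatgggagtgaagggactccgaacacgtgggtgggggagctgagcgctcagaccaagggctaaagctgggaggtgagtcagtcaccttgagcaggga
Cox7a1, chr7:30184051-30184200, plus strand: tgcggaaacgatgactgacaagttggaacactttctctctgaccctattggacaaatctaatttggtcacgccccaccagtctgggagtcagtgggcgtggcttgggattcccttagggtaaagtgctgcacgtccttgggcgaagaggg

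The NRF1 match of Atp5g2 starts 42 bases before the gene start and reads the same motif on both strands. The printed NRF1 match of Uqcrc1 starts at base 6 of the transcript on the opposite strand. A further one, on both strands, starts at base 31, just past the printed end. The GABPA match of Cox15 starts at base 8 of the transcript. Over windows from 250 bases before to 50 bases after the start, the NRF1 motif was found on either strand in 12 of the 47 genes (25.5%), against 7.17% of the promoters of 17492 protein-coding genes. The GABPA motif was found in 19 of the 47 (40.4%), against 12.9% of all. Either was in 26 of the 47 (55.3%), against 18.6% of all, and 5 held both. Among the 9 genes that fell, 3 held the NRF1 motif (Atp5g2, Atp5o and Uqcrc1) and 2 the GABPA motif (Cox15 and Cox6b1). Among the 38 other genes with a promoter, 9 held the NRF1 motif and 17 the GABPA motif. Motifs of the estrogen-related receptors (AAGGTCA) and of YY1 (AAGATGGCG) were found in 4 (8.51%) and 3 (6.38%) of the 47, against 4.73% and 2.14% of all, and in 0 of the 9. A match is a description of the letters and not a bound site.

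Complex II, succinate dehydrogenase, had the median nearest to 0 of the 4 groups. Of the 7 genes tested under its prefix, Sord among them, 0 passed the threshold, against 2.2% of all genes called lower. So small a group cannot be told apart from that share. At an unadjusted p below 0.05, 3 of the 7 (42.9%) were lower, against 11.3% of all genes. Its iron-sulfur subunit Sdhb had log2 signals of 9.34, 9.10, 9.17 and 9.15 in imiquimod tumours 1 to 4, against 9.55, 8.86, 8.98 and 9.30 in control tumours 1 to 4. The groups overlapped, with a fold change of 0.02 and a 95% confidence interval of -0.31 to 0.35 (adjusted p = 0.957). The membrane anchor Sdhc likewise overlapped (fold change -0.04, interval -0.31 to 0.24, adjusted p = 0.9). The other anchor, Sdhd, had 8.34, 7.89, 8.12 and 8.33 in imiquimod tumours, against 8.42, 8.46, 8.35 and 8.60 in control tumours. Every imiquimod tumour lay below every control tumour, imiquimod 1 only just, and the fold change of -0.29 (SE 0.11) did not pass (adjusted p = 0.185). Sdha, the flavoprotein that oxidises succinate, was among the dim probes that were not tested, at 6.50 to 6.67 in imiquimod tumours and 6.48 to 6.79 in control tumours. The assembly factors Sdhaf2, which helps attach the flavin to Sdha, Sdhaf3 and Sdhaf4 had fold changes of -0.15, -0.21 and -0.23 (adjusted p between 0.202 and 0.425). Sorbitol dehydrogenase, Sord, had a fold change of -0.26 (adjusted p = 0.165).

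In complex III, the ubiquinol-cytochrome c reductase, the core protein Uqcrc1 fell. Its signals were 10.56, 10.49, 10.29 and 10.24 in imiquimod tumours, against 11.00, 11.15, 10.82 and 10.81 in control tumours. The groups did not overlap, and the fold change was -0.55 (SE 0.11, adjusted p = 0.0264). The partner core protein Uqcrc2 had a fold change of -0.14 with an interval of -0.39 to 0.11 (adjusted p = 0.523), and the difference between the core proteins was not tested. The small subunits Uqcr11 (-0.57, adjusted p = 0.0734) and Uqcr10 (-0.51, adjusted p = 0.0896) had fold changes close to that of Uqcrc1 but missed the threshold. Uqcr11 was 10.95, 10.49, 10.20 and 10.75 in imiquimod tumours, against 11.34, 11.18, 11.05 and 11.10 in control tumours, again without overlap but with a wide spread among imiquimod tumours. Uqcrb, which lies near the ubiquinone site, had a fold change of -0.27 without overlap (adjusted p = 0.119). A pair of members stood near 0: the hinge protein Uqcrh, which helps cytochrome c dock, at 0.01 (interval -0.43 to 0.46), and the Rieske iron-sulfur protein Uqcrfs1 at 0.06 (interval -0.19 to 0.30). Uqcrh was 12.78, 12.40, 12.24 and 12.56 in imiquimod tumours, against 12.74, 11.91, 12.56 and 12.73 in control tumours, so control 2 was its lowest tumour. Uqcrq was too dim to test, at 6.42 to 6.63 in imiquimod tumours and 6.43 to 6.69 in control tumours.

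Complex IV, cytochrome c oxidase, contributed 23 tested genes, of which 10 encode subunits found in most tissues. Of these 10, 2 fell, against 2.2% of all genes, and 9 had a fold change below 0, against 55.8% of all genes. Their median was -0.43. Cox7a2, the ubiquitous form of subunit VIIa, had 8.43, 8.26, 8.34 and 8.55 in imiquimod tumours, against 9.07, 9.12, 8.71 and 9.04 in control tumours. The groups did not overlap, control 3 came closest to the imiquimod tumours, and the fold change was -0.59 (SE 0.11, adjusted p = 0.0208). Cox6b1, which faces the intermembrane space near the cytochrome c site, had 12.03, 11.94, 11.82 and 12.01 in imiquimod tumours, against 12.51, 12.43, 12.18 and 12.35 in control tumours. It fell by 0.42 (SE 0.09, adjusted p = 0.0349), and its second probe gave a fold change of -0.43. The call was lost under cyclic loess normalization (-0.34, adjusted p = 0.0785), with the mean of both probes (adjusted p = 0.0572), with a background subtracted (adjusted p = 0.0667) and with an intensity trend in the variance (adjusted p = 0.0936). Cox8a, Cox7c, Cox6a1 and Cox4i1, small subunits that surround the catalytic core, had fold changes of -0.51, -0.49, -0.47 and -0.45 and missed the threshold (adjusted p = 0.0773, 0.083, 0.263 and 0.103). Of these 4, the groups did not overlap for Cox8a and Cox7c. Cox6a1 had 12.18, 12.06, 11.70 and 12.11 in imiquimod tumours, against 12.50, 13.12, 12.11 and 12.19 in control tumours, where control 2 stood above the other controls, and its second probe gave -0.57. Cox6c was at 0.02 (interval -0.19 to 0.23), with signals of 11.15 to 11.35 in imiquimod tumours and 11.03 to 11.37 in control tumours. Cox7b (-0.01) was likewise near 0, and Cox5a and Cox5b had fold changes of -0.29 and -0.16 (adjusted p = 0.344 and 0.378). Cox7a2l, a relative of subunit VIIa that joins complexes III and IV into supercomplexes, was too dim to test.

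Assembly factors of complex IV were mixed. Cox15, which makes heme A for the enzyme from heme O, fell: it had 8.17, 8.20, 8.10 and 8.05 in imiquimod tumours, against 8.50, 8.72, 8.42 and 8.56 in control tumours. The groups did not overlap, and the fold change was -0.42 (SE 0.08, adjusted p = 0.0229). Cox10, which makes the heme O that Cox15 uses, had a fold change of 0.13 (interval -0.19 to 0.44, adjusted p = 0.67), with 8.15, 8.61, 8.16 and 8.42 in imiquimod tumours and 8.18, 8.41, 8.33 and 7.92 in control tumours. Of the copper-handling factors, Cox19 had a fold change of -0.43 without overlap (adjusted p = 0.0898) and Cox11 one of 0.02. Cox16, Cox14 and Cox20, which act on the mitochondrially encoded core subunits, had fold changes of -0.29, -0.25 and -0.17 (adjusted p between 0.279 and 0.424), and a second, dimmer probe of Cox16 gave 0.05. The isoforms Cox4i2, known from lung and low oxygen, and Cox6b2 and Cox7b2, known from testis, had fold changes of 0.00, 0.10 and -0.02, and the testis form Cox8c was too dim to test.

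The muscle-type subunits of complex IV, Cox7a1, Cox8b and Cox6a2, are known from skeletal muscle and heart, and Cox7a1 and Cox8b also from brown fat. Cox7a1 fell with the lowest fold change of the 54 genes. It had 8.97, 7.81, 8.24 and 8.63 in imiquimod tumours, against 10.10, 9.33, 9.53 and 9.56 in control tumours. The groups did not overlap, and the fold change was -1.22 (SE 0.25, adjusted p = 0.0325), a signal ratio of 0.43. Cox8b had 7.43, 6.98, 7.95 and 7.31 in imiquimod tumours, against 9.24, 7.18, 7.94 and 8.64 in control tumours. Its groups overlapped, with controls 1 and 4 high, and the fold change of -0.83 (SE 0.40) did not pass (adjusted p = 0.291). Cox6a2 had 6.82, 6.63, 8.70 and 7.65 in imiquimod tumours, against 7.02, 6.52, 6.59 and 6.79 in control tumours. Imiquimod 3 and 4 stood above all others, and the fold change was 0.72 (SE 0.40, adjusted p = 0.36), or -0.01 without those 2 tumours.

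Markers of muscle and fat varied from tumour to tumour beside these genes. The mean of the 19 skeletal muscle markers tested of 25 lay between 6.81 and 8.55 in imiquimod tumours, highest in imiquimod 3 and 4, and between 6.67 and 7.26 in control tumours, highest in control 1. Skeletal actin, Acta1, had 7.09, 6.57, 12.19 and 10.84 in imiquimod tumours, against 8.94, 6.37, 6.74 and 7.11 in control tumours. All 19 had a fold change above 0 and 0 passed the threshold, but this rested on imiquimod 3 and 4. Without those 2 tumours 15 of the 19 were below 0, with a median of -0.08, and Acta1 was at -0.46. The brown fat uncoupling protein Ucp1 had 6.41, 6.26, 6.65 and 6.45 in imiquimod tumours, against 7.58, 6.29, 6.44 and 8.40 in control tumours. Controls 1 and 4 were high for both Ucp1 and Cox8b, but Ucp1 was the 1 brown adipocyte marker of 6 with a fold change below 0. The other 5 (Cidea 0.61, Elovl3 0.04, Dio2 0.03, Cpt1b 0.08 and Fabp3 2.28) were above 0, but Elovl3, Dio2 and Cpt1b by less than their SE. Fabp3 had 6.70, 13.58, 9.32 and 7.32 in imiquimod tumours, against 6.83 to 7.06 in control tumours. Cidea had 7.15, 9.13, 7.16 and 6.96, against 6.82 to 7.13, so both were highest in imiquimod 2. The 6 brown adipocyte markers tested of 9 averaged 6.74 to 8.19 in imiquimod tumours, highest in imiquimod 2, and 6.73 to 7.10 in control tumours. The high mean of imiquimod 2 came from Fabp3 and Cidea. There Ucp1, Elovl3, Dio2 and Cpt1b were at 6.26, 6.65, 6.67 and 6.84. Which cells gave the Fabp3 and Cidea signals was not tested. The 11 general adipocyte markers tested of 12 averaged 7.19 to 8.25 in imiquimod tumours and 6.82 to 7.35 in control tumours. In either list 0 were called. Of the brown adipocyte markers, Prdm16, Otop1 and Zic1 were too dim to test. Without imiquimod 3 and 4 the fold change of Cox7a1 was -1.24 (adjusted p = 0.196). What part muscle or fat in the samples had in the values of the 3 subunits was not tested.

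**Figure D2:**
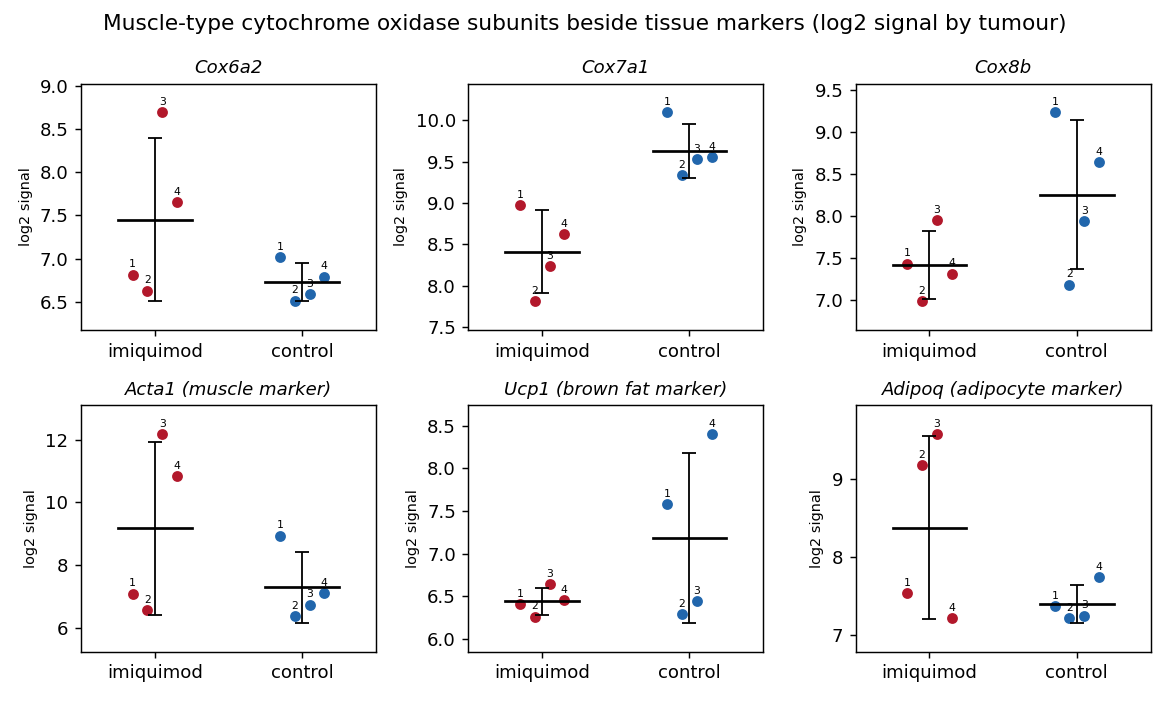
Log2 signal (y axis) of Cox6a2, Cox7a1 and Cox8b in the upper row and of the muscle marker Acta1, the brown fat marker Ucp1 and the adipocyte marker Adipoq in the lower row, by group. Numbered points are tumours, and bars with whiskers are the mean and SD of 4 tumours. Imiquimod 3 and 4 are high for Cox6a2 and Acta1, controls 1 and 4 are high for Cox8b and Ucp1, and only in the Cox7a1 panel do the groups not overlap.

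Of the 17 genes of complex V, ATP synthase, 4 fell (23.5%), against 2.2% of all genes. They were the c subunits Atp5g1 and Atp5g2, the stalk protein Atp5o and the delta subunit Atp5d of the catalytic head. The c ring is the rotor that protons turn, and its identical subunits are encoded by 3 genes, Atp5g1, Atp5g2 and Atp5g3, whose mature proteins are the same. Atp5g1 had 10.62, 10.54, 10.65 and 10.76 in imiquimod tumours, against 11.41, 11.54, 11.17 and 11.20 in control tumours. The groups stood well apart, and the fold change was -0.69 (SE 0.10, adjusted p = 0.00781), a signal ratio of 0.62. Atp5g2 had 9.76, 9.20, 9.17 and 9.32 in imiquimod tumours, against 9.97, 10.25, 9.77 and 10.07 in control tumours. Imiquimod 1 all but reached control 3, and the fold change was -0.66 (SE 0.15, adjusted p = 0.0462). Atp5g3 had 12.85, 12.78, 12.70 and 12.93 in imiquimod tumours, against 13.08, 13.33, 12.89 and 12.77 in control tumours. Its groups overlapped, and the fold change of -0.20 (interval -0.47 to 0.08) did not pass (adjusted p = 0.408). Whether Atp5g3 differed from the other c subunit genes in its response was not tested.

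Atp5o, the protein that ties the catalytic head to the peripheral stalk and confers sensitivity to oligomycin, had 11.61, 11.74, 11.48 and 11.69 in imiquimod tumours, against 12.24, 12.38, 12.09 and 12.13 in control tumours. The lowest control lay above the highest imiquimod tumour by more than the SD within either group, and the fold change was -0.58 (SE 0.09, adjusted p = 0.0112). The 5 subunits of the catalytic head had fold changes between -0.52 and -0.39, and 1 of them fell, against 2.2% of all genes. The head subunit that fell was Atp5d, with 10.95, 10.71, 10.69 and 10.81 in imiquimod tumours, against 11.32, 11.40, 11.09 and 11.23 in control tumours. The groups did not overlap, and the fold change was -0.47 (SE 0.09, adjusted p = 0.0264). The alpha subunit Atp5a1 had 8.21, 8.0, 8.15 and 8.51 in imiquimod tumours, against 8.98, 8.55, 8.76 and 8.66 in control tumours. It missed the threshold at a fold change of -0.52 (SE 0.13, adjusted p = 0.0561), although the groups did not overlap. The catalytic beta subunit Atp5b had 13.08, 13.18, 13.26 and 13.13 in imiquimod tumours, against 13.42, 13.93, 13.46 and 13.44 in control tumours, with a fold change of -0.40 (adjusted p = 0.0955). The gamma subunit Atp5c1, the shaft of the rotor, was at -0.39 (adjusted p = 0.0954) and the epsilon subunit Atp5e at -0.48 (adjusted p = 0.0997). Atp5j2, Atp5mpl, Atp5j, Atp5k and Atp5md, subunits of the stalk and membrane part, had fold changes of -0.55, -0.33, -0.31, -0.29 and -0.24, with adjusted p between 0.0628 and 0.36. Nearest to 0 were the stalk subunits Atp5pb (-0.03, interval -0.20 to 0.14) and Atp5h (-0.11, interval -0.36 to 0.15), with Dmac2l, listed as Atp5s and known as coupling factor B (-0.10).

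**Figure D3:**
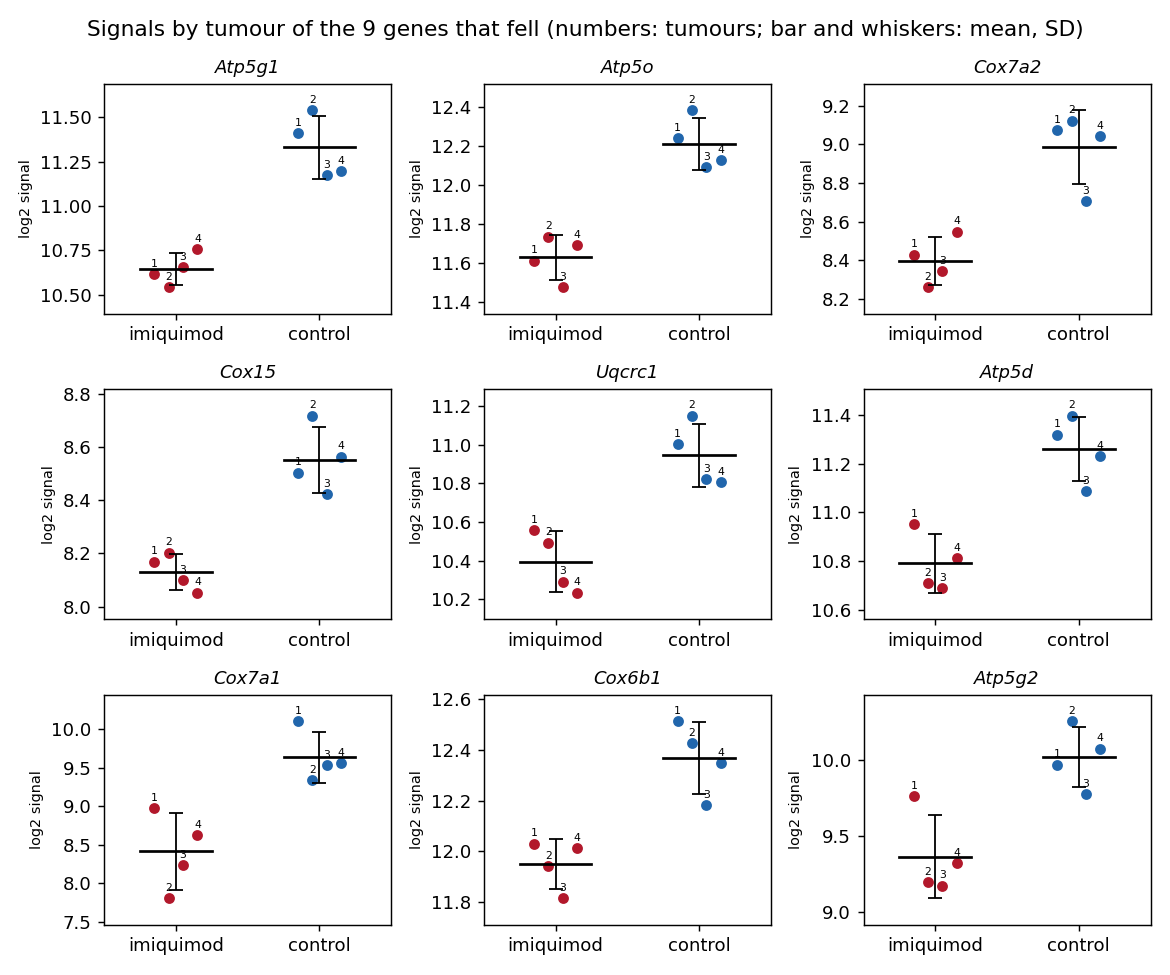
Log2 signal (y axis) of each of the 9 genes that fell, by group, in 9 panels ordered by p. Numbered points are tumours, and bars with whiskers are the mean and SD of 4 tumours. In all 9 panels the imiquimod tumours lie below the control tumours.

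The 9 calls did not rest equally on the tumours. Atp5g1 and Atp5o passed whichever of the 8 tumours was left out (adjusted p between 0.0135 and 0.0255 for Atp5g1 and between 0.0194 and 0.0314 for Atp5o). Each of the other 7 missed the threshold without some tumours. Uqcrc1 missed it without control 1 or imiquimod 2, 3 or 4 and Cox7a2 without control 1 or 4 or imiquimod 2 or 3. Cox15 missed it without control 1 or 4 or imiquimod 3 or 4, and Cox7a1 without control 1, 3 or 4 or imiquimod 2, 3 or 4. Cox6b1 and Atp5d missed it without control 1, 2 or 4 or imiquimod 2, 3 or 4, and Atp5g2 without any tumour but imiquimod 1. The number of respiratory genes that fell was 2 without control 1 or imiquimod 3, 3 without control 4 or imiquimod 2 and 4 without imiquimod 4. It was 6 without control 2, 11 without control 3 and 12 without imiquimod 1. Over all genes the number that passed, lower or higher, also varied, from 278 to 911 with 1 tumour left out. With imiquimod 3 and 4, the tumours with the highest muscle markers, both left out, 0 of the 54 fell, against 0.312% of all genes. Fold changes moved less, and the median over the 54 genes was then -0.22. At an adjusted p below 0.1 with all tumours, 19 of the 54 were lower, against 5.01% of all genes.

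Seen tumour by tumour, the 54 genes were low in each treated tumour. Their median distance from the control mean was -0.21, -0.31, -0.35 and -0.29 in imiquimod tumours 1 to 4, against 0.06, 0.11, -0.13 and -0.01 in control tumours 1 to 4. Imiquimod 1 thus lay closest to the controls and control 3 closest to the imiquimod tumours. For all 13142 genes the same median lay between -0.03 and -0.01 in imiquimod tumours and between -0.01 and 0.00 in control tumours. Complex V gave -0.30, -0.38, -0.40 and -0.37 in imiquimod tumours, against 0.07, 0.17, -0.15 and -0.03 in control tumours, a gap between the groups. The genes under the complex II prefix, Sord included, gave -0.04, -0.22, -0.24 and -0.12 in imiquimod tumours. In control tumours they gave -0.04, 0.07, -0.17 and 0.12, which overlapped. Control 2 was the highest control for 25 of the 54 genes and control 1 for 18, and imiquimod 3 was the lowest imiquimod tumour for 20 and imiquimod 2 for 18.

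**Figure D4:**
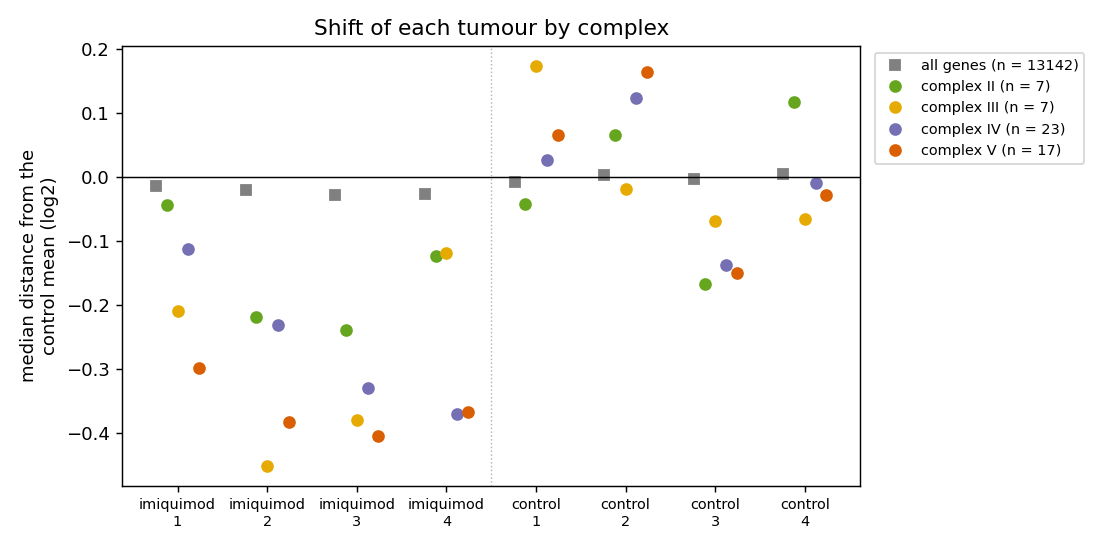
Median distance from the control mean (log2, y axis) of the genes under each complex prefix and of all genes in each tumour (x axis). Sord is under complex II. Imiquimod tumours are left of the dotted line and control tumours right of it. The complex V points lie between -0.40 and -0.30 in imiquimod tumours and between -0.15 and 0.17 in control tumours, while the squares for all genes stay near 0.

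The respiratory genes are bright on these arrays. Of the 58, 24 were at or above the 95th percentile of mean signal among all probes and 14 at or above the 99th. Fold changes were lower among the bright ones: the median was -0.39 for the 39 genes with a mean log2 signal above 8, of which 35 were below 0 and 9 fell. It was -0.03 for the 15 at or below 8, of which 10 were below 0 and 0 fell. Over all genes the medians were -0.04 above 8 and -0.02 at or below it, and 5.0% and 1.02% were called lower. Whether a background was subtracted before deposit is not given in the sources used here, and what part the dim signals had in the smaller fold changes was not tested.

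**Figure D5:**
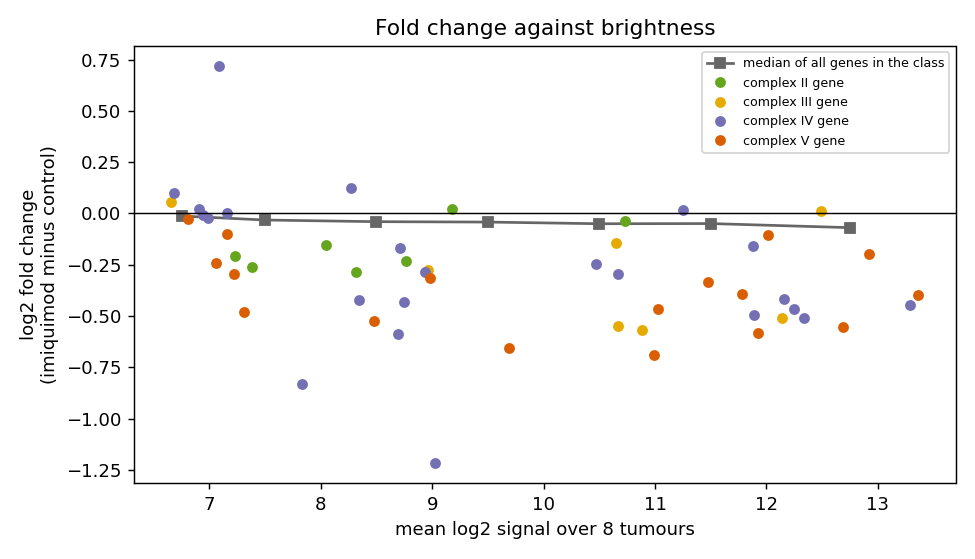
Log2 fold change (imiquimod minus control, y axis) against mean log2 signal over the 8 tumours (x axis) for the 54 tested genes. Colours give the complex prefix, with Sord under complex II. The grey line joins the medians of all genes in classes of brightness and stays between -0.07 and -0.01, while the respiratory genes above 8 have a median of -0.39.

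Genes that work beside these complexes were read from lists of the pathway. Complex I, the other entry point of electrons, was read by the prefix Nduf alone. That prefix also took in Ndufa4 (-0.01), which is counted among the subunits with other symbols below as well. Of the 40 Nduf genes 38 were tested. Of these, 5 (13.2%) fell and 0 rose, 92.1% had a fold change below 0, and the median was -0.26. Of the mitochondrial ribosomal proteins, 72 of 77 were tested, 4 (5.56%) fell and 0 rose. Their fold change was below 0 for 88.9%, with a median of -0.17. Over all genes 2.2% fell, 2.13% rose and 55.8% were below 0. Both groups exceeded the 83.3% below 0 among the 54 genes, so lower values were not particular to complexes II to V. Among assembly factors outside the prefixes, 19 of 28 were tested and 1 (5.26%) fell, Cmc2, a small mitochondrial protein needed to build complex IV. Cmc2 had 7.90, 7.89, 7.75 and 8.07 in imiquimod tumours, against 8.68, 8.82, 8.52 and 8.74 in control tumours. The groups stood well apart at a fold change of -0.79 (SE 0.09, adjusted p = 0.0041), and it passed whichever tumour was left out and without imiquimod 3 and 4 together (adjusted p = 0.0277). Its dimmer second probe gave -0.19.

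Electron carriers and subunits with other symbols had 13 of 16 tested and 0 called. The lowest p among them belonged to Coq7, a hydroxylase of ubiquinone synthesis (-0.59, adjusted p = 0.0564), and Cyc1, the cytochrome c1 of complex III (-0.49, adjusted p = 0.148). Of the ADP and ATP transport genes, 8 of 9 were tested and 0 called, with the mitochondrial creatine kinase Ckmt1 at -1.08 (adjusted p = 0.116) and the outer membrane channel Vdac1 at -0.42 (adjusted p = 0.123). All 14 enzymes of the citric acid cycle were tested and 0 called, and Idh2, which makes NADPH from isocitrate, was at -0.60 (adjusted p = 0.0582) and the fumarase Fh1 at -0.40 (adjusted p = 0.0748). At an unadjusted p below 0.05, 5 electron carriers, 2 transport genes and 5 cycle enzymes were lower and 0 of these 3 lists higher, against 11.3% lower and 9.21% higher over all genes. For the assembly factors the count was 2 of 19 lower (10.5%) and 1 higher, Coa5 (0.33, adjusted p = 0.0628), whose groups did not overlap. For the Nduf genes it was 21 of 38 lower and 1 higher. Of the regulators of mitochondrial biogenesis, 13 of 15 were tested and 1 fell. This was Tfb1m, which methylates the mitochondrial ribosomal RNA, with 7.26, 7.20, 7.17 and 7.35 in imiquimod tumours, against 7.61, 7.57, 7.61 and 7.67 in control tumours. The groups did not overlap at a fold change of -0.37 (SE 0.07, adjusted p = 0.0189), and it missed the threshold when control 4, imiquimod 2 or imiquimod 3 was left out. At an unadjusted p below 0.05, 3 of the 13 regulators (23.1%) were lower and 0 higher. Besides Tfb1m these were Ppargc1a (-0.48, adjusted p = 0.0933), also without overlap, and Esrra (-0.36, adjusted p = 0.128). Nrf1 and Gabpa each had a fold change of 0.09 (adjusted p = 0.565 and 0.591).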

How the data were processed

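Log2 signals of the series table, 1 column per sample, were analysed as the authors deposited them. The values follow almost the same distribution on each of the 8 arrays, which quantile normalization would give. The highest value differs between the groups (15.07 on imiquimod arrays, 14.86 on control arrays), so a step applied to each group apart cannot be told apart from treatment. Per the submitters' processing notes the R package affy was used, with no version or role. Background correction is not given in the sources used here. The non-normalized table has 16 columns of per-sample values whose headers match no sample label, and these were not used. Its symbols and accessions named the probes through RefSeq: of 24341 probes, 20038 through an accession, 1620 through a symbol and 1736 through a synonym, while 692 kept the file's symbol and 255 had no name.

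The third of probes that were dimmest by mean over the 8 arrays (below a log2 signal of 6.64) was left out, which kept 16227. The brightest probe represented each gene, giving 13142 units. Groups were compared with limma 3.58.1 under R 4.3.3 (two-sided moderated test from eBayes, no covariate), adjusted by Benjamini-Hochberg over all units, with intervals at 95%. The procedure was tested on simulated data. Members and lists were chosen with earlier results of these data known. Named are every member past the threshold, the highest and lowest of each complex, isoforms of muscle and other tissues with their ubiquitous partners, c subunit genes, core subunits of complex II and, of each pathway list, genes past the threshold or the pair of smallest p. Other genes were picked with their values in view. The number of arrays limits the precision. Alternatives covered normalization, the filter on dim probes, the probe of a gene, background, the variance model, the replicate block and tumours left out.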

Additional observations from a re-analysis of the deposited data

Results flagged for a closer look

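Among 108 groups of 4 tumours examined (54 genes in each treatment group), 5 held a tumour that stood apart by Dixon's criterion, which chance alone gives in about 1 in 20 groups. Control 2 accounted for 2 of the 5. The beta subunit Atp5b had a log2 signal of 13.93 in control 2, against 13.42 to 13.46 in the other control tumours. The assembly factor Cox20 had 9.01 in control 2, against 8.70 to 8.73 in the others. The gamma subunit Atp5c1 had 11.31 in imiquimod 3, against 11.66 to 11.68 in the other imiquimod tumours. The testis form Cox6b2, a dim probe, had 6.85 in imiquimod 1, against 6.68 to 6.70 in the other imiquimod tumours, and 6.72 in control 1, against 6.60 to 6.61 in the other control tumours. Of these 4 genes 0 passed the threshold between the groups.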

How the results depend on the processing

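In all 9 genes that fell the groups did not overlap, so leaving tumours out could not change their sign. Over 27 named genes and 510 recomputed fold changes, 0 reversed a called direction, 62 lost the threshold and 2 gained it. A further 28 changed sign without being called in either setting (in Sdhb, Sdhc, Uqcrh, Uqcrfs1, Cox4i2, Cox6a2, Atp5pb and Dmac2l). The number of member genes that passed was 9, and 2 to 12 with 1 tumour left out. It was 0 without imiquimod 3 and 4 and 0 when control 2, a choice made after seeing the data, was left out as well; it was 19 at an adjusted p below 0.1. Without imiquimod 3 and 4, Atp5g1 (-0.75, adjusted p = 0.0586) and Atp5o (-0.54, adjusted p = 0.0984) missed the threshold. Over all genes 569 passed, and 278 to 911 did with 1 tumour left out, 112 without imiquimod 3 and 4, 155 without control 2 as well and 1189 at an adjusted p below 0.1. The 9 other settings gave 6 to 9 member genes and 501 to 647 genes in all. The member median stayed between -0.34 and -0.20. The median of the 3 muscle-type subunits was -0.83, lay between -1.19 (without control 2) and -0.50 with 1 tumour left out and was -1.34 without control 2 and imiquimod 3 and 4. With an intensity trend and robust variance Atp5d (adjusted p = 0.0649) and Cox15 (adjusted p = 0.0547) missed the threshold, and Cox6b1 missed it under that and 3 other settings that kept all tumours. With the replicate block 8 member genes passed and Atp5g2 did not (adjusted p = 0.0695). Same-numbered tumours deviated together by correlations of only -0.02 to 0.04, so the numbers were not taken as pairing. Signal over background limits Sdha, Uqcrq, Cox7a2l and Cox8c, which were too dim to test.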
